A study of Rattus norvegicus with 22 samples.

Results

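Principal cells are the water- and sodium-reabsorbing cells of the renal collecting duct, and 10 genes that mark their transport work were followed in the kidney RNA of PKD/Mhm (Cy/+) rats. The genes were taken by name as known genes of this cell type, with earlier results of these data known, and no measured value enters the rule: Aqp2, Aqp3, Aqp4, Avpr2, Scnn1a, Scnn1b, Scnn1g, Hsd11b2, Nr3c2 and Gata3. They are 10 of the 17334 genes listed for each rat, and all 10 were among the 12867 genes that passed the filter on low counts. The samples were left kidneys of 22 rats aged 8 months, 1 sample per rat, and every rat carried the PKD/Mhm (Cy/+) genotype, a heterozygous state of a mutation that gives polycystic kidneys. No healthy kidney was analysed here, so each comparison was between polycystic kidneys. The untreated group held 6 rats, the i.p. ASC group 6 rats that were given human adipose-derived stromal cells (ASC) into the peritoneal cavity, the i.v. ASC group 6 rats that were given the same cells into a vein, and the ASC-derived CM group 4 rats that were given conditioned medium (CM), the culture medium taken from such cells. Cells or CM were given once a month for 6 months, with 2000000 cells per injection in the ASC groups. The route of the CM is not given by the labels, while the design text and the study's methods give different ones. The total count ran from 12195663 to 14734753 per rat, with a median of 12932167 in untreated rats, 12915564 after i.p. ASC, 12715505 after i.v. ASC and 12954082 after ASC-derived CM.

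In these cells the hormone vasopressin binds the receptor encoded by Avpr2, raises cyclic AMP and moves the water channel encoded by Aqp2 into the membrane that faces the urine. Water then leaves on the blood side through the channels encoded by Aqp3 and Aqp4. Aldosterone acts through the mineralocorticoid receptor, encoded by Nr3c2, and raises the activity of the epithelial sodium channel, whose α, β and γ subunits are encoded by Scnn1a, Scnn1b and Scnn1g. The enzyme encoded by Hsd11b2 inactivates glucocorticoids inside the cell, which leaves the receptor to aldosterone, and Gata3 encodes a transcription factor of the collecting duct. In polycystic kidneys vasopressin and cyclic AMP are known to promote the growth of cysts. The kidney samples held RNA of all renal cell types, so a level of these genes need not reflect principal cells alone. A lower level may come from fewer principal cells, from less RNA per cell or from the share of other cells in the sample. These cannot be told apart here.

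Promoter windows are shown for 4 genes whose levels followed each other over the rats in pairs, Aqp2 with Aqp3 and Scnn1b with Scnn1g. The windows are those of RefSeq on the rat assembly GRCr8, from 250 bases before to 50 bases after the gene start, in the direction of the gene, and capitals mark every match to the letters of 4 motifs, each searched on both strands. The core of the cyclic AMP response element was searched as TGACG. The motif of GATA factors was searched as AGATAA. The site of steroid receptors was searched as AGAACA, and the motif of ETS factors as AGGAAG. Aqp2 lies on the plus strand at chr7:132590036-132590335, Aqp3 on the minus strand at chr5:61040634-61040933, Scnn1g on the plus strand at chr1:185735975-185736274 and Scnn1b on the plus strand at chr1:185861126-185861425, so that Scnn1g and Scnn1b lie on the same chromosome.
Aqp2: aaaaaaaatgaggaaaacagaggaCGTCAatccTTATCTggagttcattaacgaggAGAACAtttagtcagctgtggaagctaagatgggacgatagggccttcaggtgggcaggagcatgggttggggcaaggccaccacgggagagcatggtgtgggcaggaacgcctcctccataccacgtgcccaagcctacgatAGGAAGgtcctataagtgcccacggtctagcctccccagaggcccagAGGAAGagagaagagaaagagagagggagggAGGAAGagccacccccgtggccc
Aqp3: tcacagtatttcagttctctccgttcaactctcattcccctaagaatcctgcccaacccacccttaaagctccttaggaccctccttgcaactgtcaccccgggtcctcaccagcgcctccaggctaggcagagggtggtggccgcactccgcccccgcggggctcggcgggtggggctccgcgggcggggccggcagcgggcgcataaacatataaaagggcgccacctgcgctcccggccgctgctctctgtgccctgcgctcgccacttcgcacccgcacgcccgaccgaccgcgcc
Scnn1g: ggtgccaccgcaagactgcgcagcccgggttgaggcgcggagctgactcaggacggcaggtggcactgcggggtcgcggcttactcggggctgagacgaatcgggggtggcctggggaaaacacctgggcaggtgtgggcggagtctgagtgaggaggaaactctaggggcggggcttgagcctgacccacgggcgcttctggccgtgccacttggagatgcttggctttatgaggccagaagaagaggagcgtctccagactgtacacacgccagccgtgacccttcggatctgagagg
Scnn1b: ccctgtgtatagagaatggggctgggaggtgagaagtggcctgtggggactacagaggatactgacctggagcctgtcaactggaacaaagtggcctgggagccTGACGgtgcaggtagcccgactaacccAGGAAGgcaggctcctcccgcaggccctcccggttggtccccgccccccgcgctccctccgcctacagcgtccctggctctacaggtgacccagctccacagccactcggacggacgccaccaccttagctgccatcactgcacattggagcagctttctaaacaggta

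The Aqp2 window held 6 matches and the Scnn1b window 2, while the windows of Aqp3 and Scnn1g held 0. Over all 33469 windows of this length, 21.2% held TGACG, 11.6% AGATAA, 20.7% AGAACA and 34.5% AGGAAG. The whole response element TGACGTCA, which contains TGACG, was in 1.83% of the windows and in none of the windows of the 7 members that had an entry. Scnn1a, Hsd11b2 and Nr3c2 had no entry. A match gives the letters of a window only.

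Hsd11b2 and Aqp2 were the most abundant members. On the TPM scale, which is per transcript length and so allows genes to be compared, the mean over the 22 rats was 853 TPM for Hsd11b2 and 810 TPM for Aqp2, ranks 184 and 194 among the 12867 genes tested. Aqp3 followed with 182 TPM and Scnn1b with 123 TPM. The next members were close to each other, Gata3 with 71.4, Avpr2 with 68.8, Scnn1a with 68.2 and Scnn1g with 63.8 TPM. Aqp4 and Nr3c2 were the least abundant, at 15.1 TPM each, near the middle of all genes tested. The 3 subunits of the sodium channel thus differed in level, with Scnn1b above Scnn1a and Scnn1g. The lowest estimated count of any member in any rat was 371, for Aqp4, so that every marker of the principal cell was present in every kidney and none was near the limit of counting.

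The aquaporins varied most from rat to rat. The coefficient of variation of the CPM (counts scaled to the library total after TMM normalization) over the 22 rats was 54.9% for Aqp4, 49.4% for Aqp3 and 37.9% for Aqp2, and lay between 17.3% for Gata3 and 23.5% for Scnn1a in the other 7 members. The median of all genes tested was 15.9%. The highest level was 5.92 times the lowest for Aqp4, 5.23 times for Aqp3 and 3.9 times for Aqp2. For Aqp2, Aqp3, Avpr2, Scnn1a and Gata3 the lowest TPM was that of i.p. ASC rat 1. The highest value of Aqp2, Aqp3 and Avpr2 was that of i.v. ASC rat 3.

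**Figure D1:**
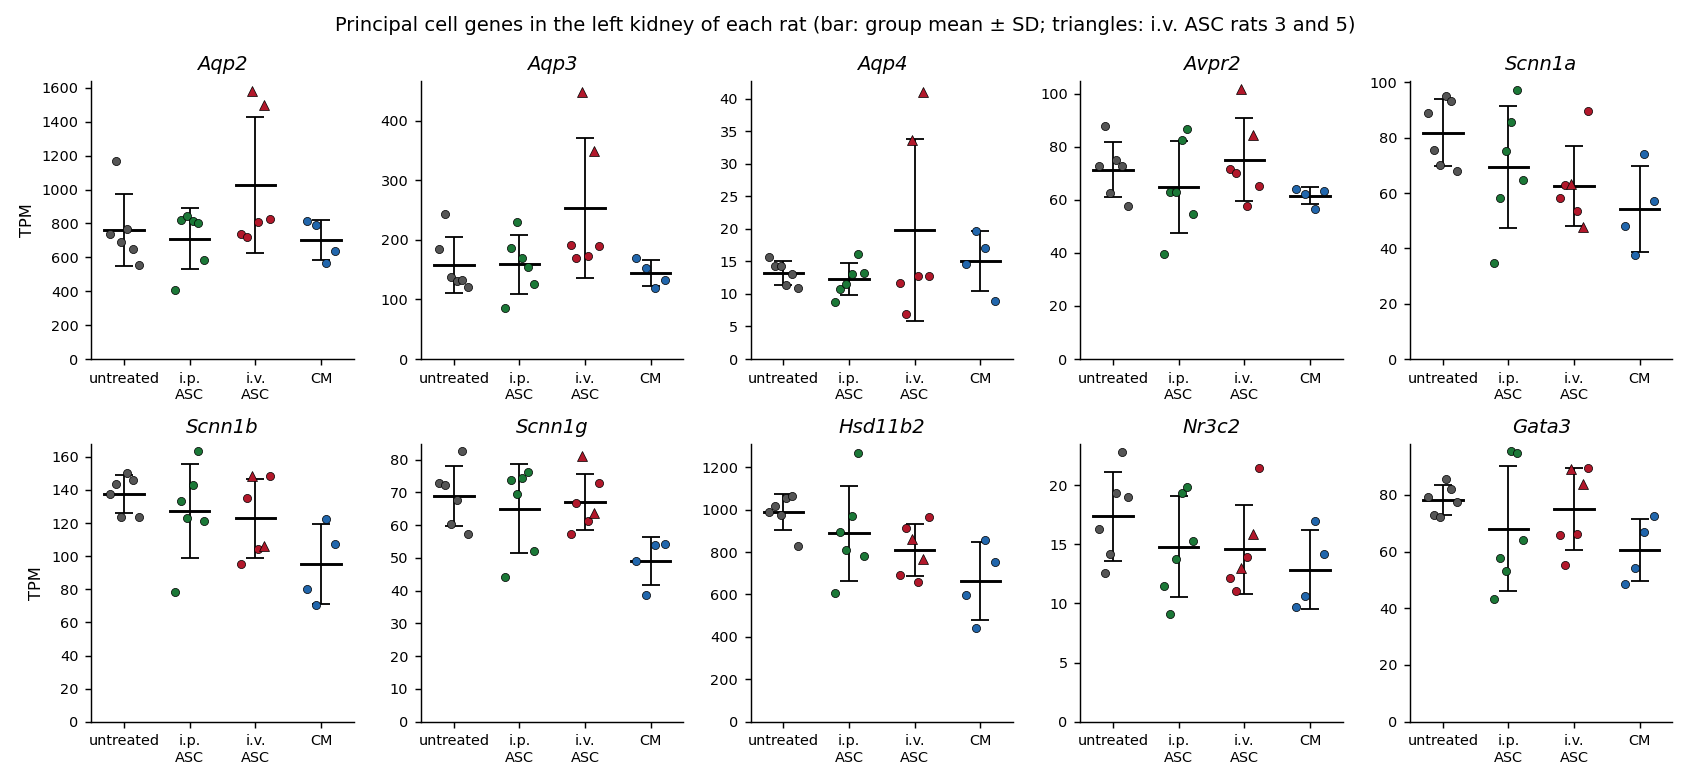
TPM of the 10 members (vertical axes, from 0) in each rat, by treatment group (horizontal axes), with the group mean and SD as bars; the triangles are i.v. ASC rats 3 and 5. These 2 rats lie above all other rats for Aqp2, Aqp3 and Aqp4 (1582 and 1501 TPM for Aqp2), and the 4 ASC-derived CM rats lie below all untreated rats for Scnn1b and Scnn1g.

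Rats 3 and 5 of the i.v. ASC group stood apart in the water channels, so counts of members and of most lists in the i.v. ASC comparisons are also given without them. Aqp2 was at 1582 TPM in rat 3 and 1501 TPM in rat 5, while the other 4 rats of the group were between 717 and 828 TPM. Aqp4 was at 33.7 and 41.0 TPM in these rats, and at 12.8 TPM or less in the other 4. In the sodium genes the same rats were not the highest as a pair. On the log2 CPM scale rat 3 alone was the highest of all rats for Scnn1b (8.23) and Scnn1g (7.69), and also for Gata3 (6.38). Rat 5 was at 7.57, 7.15 and 6.26 for these genes. In TPM rat 3 was the highest of its group, but not of all rats, for Scnn1b and Scnn1g. On neither scale was rat 3 the highest of all rats for Scnn1a, Hsd11b2 or Nr3c2. Scnn1a was at 63.4 TPM in rat 3 and 47.7 TPM in rat 5, the second of which was the lowest of its group.

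The first question was whether the level of the vasopressin receptor and the water channels differed between treated and untreated kidneys. Aqp2 was at 763 ± 213 TPM (SD, n = 6) in untreated rats, with a lowest, median and highest value of 558, 716 and 1171 TPM. After i.p. ASC these values were 406, 809 and 841 TPM, and after i.v. ASC 717, 817 and 1582 TPM. After ASC-derived CM the 4 rats had 814, 790, 569 and 639 TPM. All groups overlapped, and the order of the group means was i.v. ASC, untreated, i.p. ASC and ASC-derived CM. On the log2 CPM scale all 6 i.v. ASC rats lay above the median of the untreated rats, but only rats 3 and 5 lay above the highest of them. Against untreated rats, the log2 fold change of Aqp2 was 0.54 ± 0.24 (SE) after i.v. ASC, -0.03 ± 0.24 after i.p. ASC and -0.04 ± 0.27 after ASC-derived CM.

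Aqp3, the water channel of the blood side, had the largest difference in the i.v. ASC group among the members. Its lowest, median and highest values were 121, 135 and 243 TPM in untreated rats, 85.6, 162 and 230 TPM after i.p. ASC and 170, 190 and 448 TPM after i.v. ASC. The ASC-derived CM rats had 169, 153, 120 and 133 TPM. The groups overlapped, and 2 of the 6 i.v. ASC rats, rats 3 and 5, were above all untreated rats. Its log2 fold change after i.v. ASC was 0.79 ± 0.28 (SE), a 1.73-fold level, and those after i.p. ASC and ASC-derived CM were 0.08 ± 0.28 and -0.07 ± 0.31.

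Aqp4, the other channel of the blood side, had a lowest, median and highest value of 11.0, 13.6 and 15.7 TPM in untreated rats, 8.81, 12.3 and 16.1 TPM after i.p. ASC and 6.92, 12.8 and 41.0 TPM after i.v. ASC. The ASC-derived CM rats had 14.6, 19.8, 17.0 and 8.85 TPM. The i.v. ASC group held both the lowest and the 2 highest values of all rats, and its median was below that of the untreated group. For Aqp4 the log2 fold change after i.v. ASC was 0.68 ± 0.33 (SE), and that after ASC-derived CM 0.24 ± 0.36.

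For Avpr2, the vasopressin receptor gene, no group stood apart. Its lowest, median and highest values were 57.7, 72.8 and 87.7 TPM in untreated rats, 39.6, 62.9 and 86.5 TPM after i.p. ASC and 57.8, 70.9 and 102 TPM after i.v. ASC, and the ASC-derived CM rats had 64.2, 62.2, 56.7 and 63.3 TPM. The groups overlapped. Its log2 fold changes were -0.07 ± 0.15, 0.19 ± 0.15 and -0.14 ± 0.16 (SE) after i.p. ASC, i.v. ASC and ASC-derived CM.

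No member passed the threshold of 0.05 in any comparison with untreated rats by edgeR's quasi-likelihood test after adjustment over all genes, and neither did any other gene, so that the background was 0% in each. The smallest adjusted p-values of all 12867 genes were 0.771 after i.p. ASC, 0.142 after i.v. ASC and 0.194 after ASC-derived CM, while 500, 1133 and 849 genes had an unadjusted p under 0.05. DESeq2 called 0, 28 and 5 genes, none of them a member. In the i.p. ASC comparison 0 of the 10 members had an unadjusted p under 0.05, against 1.75% of all genes higher and 2.14% lower. After i.v. ASC the count was 2 of 10 members higher, Aqp2 and Aqp3, against a background of 3.81% higher, and 0 of 10 lower against 5% lower. The unadjusted p-values by edgeR were 0.0358 for Aqp2, 0.0107 for Aqp3 and 0.0505 for Aqp4, each with an adjusted p of 0.523. The adjusted p of Aqp3 ranged from 0.249 to 0.867 over the alternative settings. Without rats 3 and 5 of this group the count was 0 of 10, against 1.08% of all genes higher in that fit, the log2 fold changes of Aqp2 and Aqp3 were 0.11 and 0.28, and those of Aqp4, Avpr2 and Gata3 were below 0, at -0.20, -0.01 and -0.09. Without rat 3 alone the count was also 0.

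The same rats had high sums of urothelial genes, high Slc14a2 and low sums of podocyte genes, which they shared in part with other rats. Genes of the urothelium, the lining of the renal pelvis, summed to 551 TPM in rat 3 and 127 TPM in rat 5 over 7 genes, with Upk1a as the most abundant and no gene at 0. They summed to 326 TPM in i.v. ASC rat 1 and 23.6 TPM in rat 4, and to at most 17.1 TPM in every rat outside the i.v. ASC group. Rat 1, with the second highest urothelial sum, had Aqp2 at 737 TPM and Aqp3 at 190 TPM. All 6 urothelial genes tested were higher with an unadjusted p under 0.05 in the i.v. ASC group, against 3.81% of all genes. The 6 genes had a median log2 fold change of 4.70, and their smallest adjusted p was 0.142, for Upk1b. Without rats 3 and 5 only 4 of them passed the filter on low counts. All 4 were higher at an unadjusted p under 0.05, against 1.08% of all genes in that fit. Slc14a2, the urea transporter of the inner medullary collecting duct, was at 29.6 TPM in rat 3 and 20.4 TPM in rat 5, at 20.4 TPM in ASC-derived CM rat 2 and 8.56 TPM in i.p. ASC rat 6, and at 0.191 TPM or less in the untreated rats. The sum of the 6 medullary osmolyte genes was 306 TPM in rat 3 and 157 TPM in rat 5, against 130 to 177 TPM in untreated rats, with Akr1b1 as the most abundant and no gene at 0. Of these 6 genes 1 was lower after i.p. ASC at an unadjusted p under 0.05 (2.14% of all genes), and 2 were higher after ASC-derived CM (2.84%). After i.v. ASC 1 was higher and 1 lower (3.81% and 5%), or 0 and 1 without rats 3 and 5 (1.08% and 2.14%), and 0 passed after adjustment in any of these. The 5 podocyte genes, which mark the glomeruli of the cortex, summed to 59.1 TPM in rat 3, 77.1 TPM in rat 5 and 66.0 TPM in i.v. ASC rat 1, against 160 to 359 TPM in untreated rats, with no gene at 0. Of these genes 2 of 5 were lower after i.v. ASC at an unadjusted p under 0.05 (5% of all genes) and 0 without rats 3 and 5 (2.14% of all genes), and 0 passed after adjustment. The 5 endothelial genes summed to 73.3 TPM in rat 3, the lowest of all rats, and 138 TPM in rat 5, against 177 to 251 TPM in untreated rats, with no gene at 0. The part of these cells in the levels of the aquaporins was not tested.

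**Figure D2:**
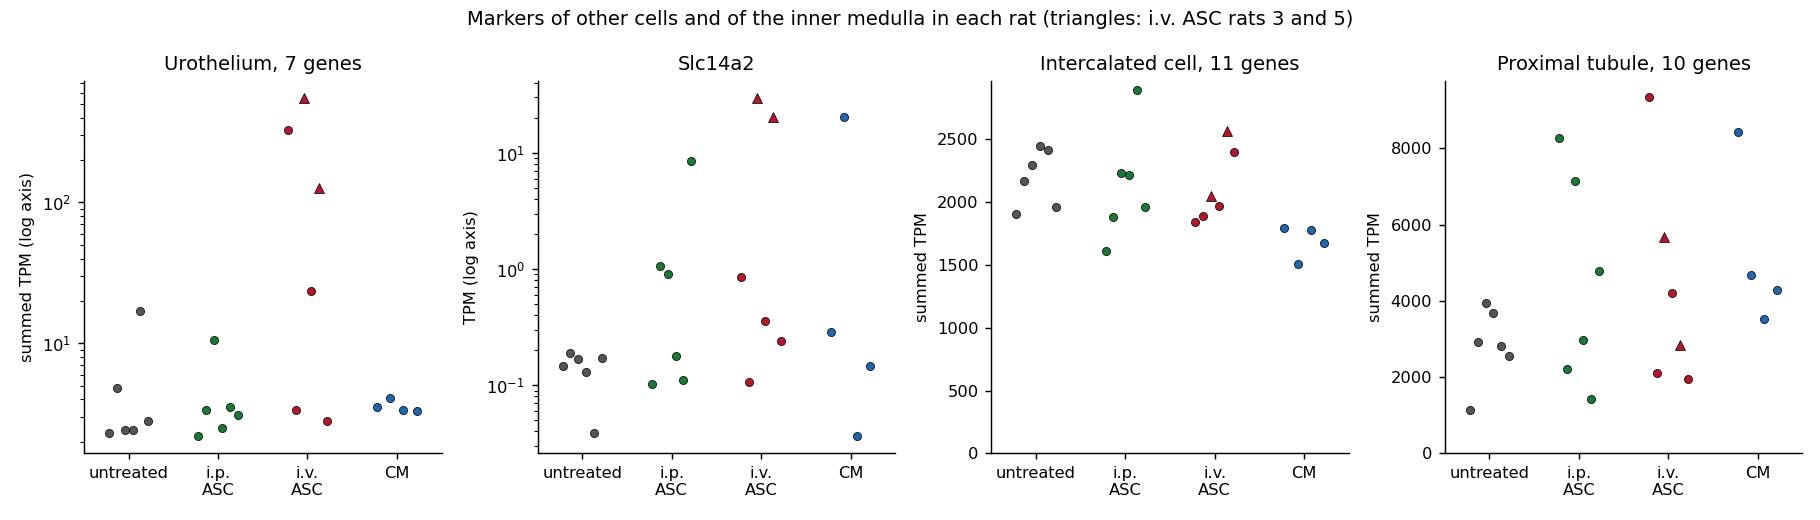
Summed TPM of urothelial, intercalated cell and proximal tubule marker genes and TPM of Slc14a2 (vertical axes, on a log scale for the urothelium and Slc14a2) in each rat, by treatment group; triangles are i.v. ASC rats 3 and 5. Rat 3 holds the highest Slc14a2 value (29.6 TPM), the 3 highest urothelial sums (551, 326 and 127 TPM) are those of i.v. ASC rats, and the intercalated cell sum of the ASC-derived CM rats lies at or below 1797 TPM.

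The second question was whether the sodium channel, its hormone receptor and the enzyme that guards the receptor differed between the groups. These genes were lower in the ASC-derived CM rats, although none passed the adjusted threshold. Scnn1a, the α subunit, had a lowest, median and highest value of 68.1, 82.2 and 95.2 TPM in untreated rats, 34.7, 69.9 and 97.4 TPM after i.p. ASC and 47.7, 60.6 and 89.8 TPM after i.v. ASC. The ASC-derived CM rats had 48.1, 37.7, 74.1 and 57.3 TPM. Of these 4 rats 3 were below every untreated rat, and rat 3 was within their range. For Scnn1a the log2 fold change was -0.54 ± 0.20 (SE) after ASC-derived CM, a level of 0.686 of the untreated rats.

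Scnn1b, the β subunit, was at 124, 140 and 150 TPM (lowest, median and highest) in untreated rats, at 78.5, 128 and 163 TPM after i.p. ASC and at 95.2, 120 and 149 TPM after i.v. ASC. After ASC-derived CM the rats had 80.4, 70.2, 123 and 108 TPM, all below the lowest untreated value on the TPM scale, while on the log2 CPM scale 3 of the 4 were. With ASC-derived CM the log2 fold change was -0.48 ± 0.16 (SE).

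Scnn1g, the γ subunit, was at 57.4, 70.1 and 82.7 TPM (lowest, median and highest) in untreated rats, at 44.2, 71.8 and 76.2 TPM after i.p. ASC and at 57.3, 65.2 and 81.1 TPM after i.v. ASC. The ASC-derived CM rats had 49.2, 38.8, 54.0 and 54.2 TPM. All 4 were below the lowest untreated rat in TPM, and 2 of the 4 were in log2 CPM. This gave a log2 fold change of -0.43 ± 0.15 (SE).

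Hsd11b2 had the smallest p-value of the members in the ASC-derived CM comparison. It was at 829, 1004 and 1062 TPM (lowest, median and highest) in untreated rats, at 606, 854 and 1269 TPM after i.p. ASC and at 659, 814 and 963 TPM after i.v. ASC. The ASC-derived CM rats had 599.6, 442, 859 and 754 TPM. Rat 3 was above the lowest untreated rat and the other 3 were below it. Hsd11b2 thus had a log2 fold change of -0.52 ± 0.16 (SE), a level of 0.696 of the untreated rats.

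Nr3c2, the mineralocorticoid receptor gene, was at 12.6, 17.7 and 22.8 TPM (lowest, median and highest) in untreated rats, 9.11, 14.5 and 19.8 TPM after i.p. ASC, 11.0, 13.4 and 21.4 TPM after i.v. ASC, and 9.69, 10.6, 16.9 and 14.2 TPM in the ASC-derived CM rats. The groups overlapped, and the log2 fold change after ASC-derived CM was -0.37 ± 0.16 (SE). Gata3, the transcription factor gene, was at 72.2, 78.4 and 85.7 TPM in untreated rats, 43.2, 60.9 and 95.4 TPM after i.p. ASC, 55.2, 74.9 and 89.3 TPM after i.v. ASC, and 48.7, 54.4, 66.8 and 72.6 TPM in the ASC-derived CM rats. On the log2 CPM scale its 4 ASC-derived CM rats were all below the 6 untreated rats, which held for 1 of the 10 members and for 0.987% of all genes, while in TPM rat 4 was above the lowest untreated rat. Its log2 fold change was -0.31 ± 0.14 (SE).

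In the ASC-derived CM comparison 6 of the 10 members had a lower level with an unadjusted p under 0.05, against 3.75% of all genes lower, and 0 of 10 a higher level, against 2.84% higher. Several of the 6 moved together over the 22 rats (r = 0.93 for Scnn1b and Hsd11b2, but 0.26 for Scnn1g and Nr3c2), so they are not independent counts. The p-values were 0.0045 for Hsd11b2, 0.00823 for Scnn1b, 0.0115 for Scnn1g, 0.0141 for Scnn1a, 0.0349 for Nr3c2 and 0.0407 for Gata3, each with an adjusted p of 0.711 by edgeR. For Hsd11b2 the adjusted p ranged from 0.405 to 0.9998 over the alternative settings. A log2 fold change below 0 was found in 9 of 10 members after ASC-derived CM, 4 of 10 after i.v. ASC and 8 of 10 after i.p. ASC, against 50.9%, 52.5% and 53.8% of all genes. The median log2 fold change of the members was -0.34, 0.06 and -0.06 in the same order, beside 0.00, -0.01 and -0.01 over all genes tested. The 3 comparisons share the untreated rats. The count below 0 after i.p. ASC was 4 without untreated rat 2 or without i.p. ASC rat 1, and 10 without i.p. ASC rat 3. After i.v. ASC it was 7 without rats 3 and 5 of that group. After ASC-derived CM it was 7 without untreated rat 2 or without ASC-derived CM rat 3. Without ASC-derived CM rat 2, the lowest for Scnn1a, Scnn1b, Scnn1g and Hsd11b2 in its group, the count of 6 was 2, Scnn1b and Hsd11b2, and without rat 1 it was 4. With the score of the proximal tubule genes in the model the count was also 4, namely Scnn1a, Scnn1b, Scnn1g and Hsd11b2.

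**Figure D3:**
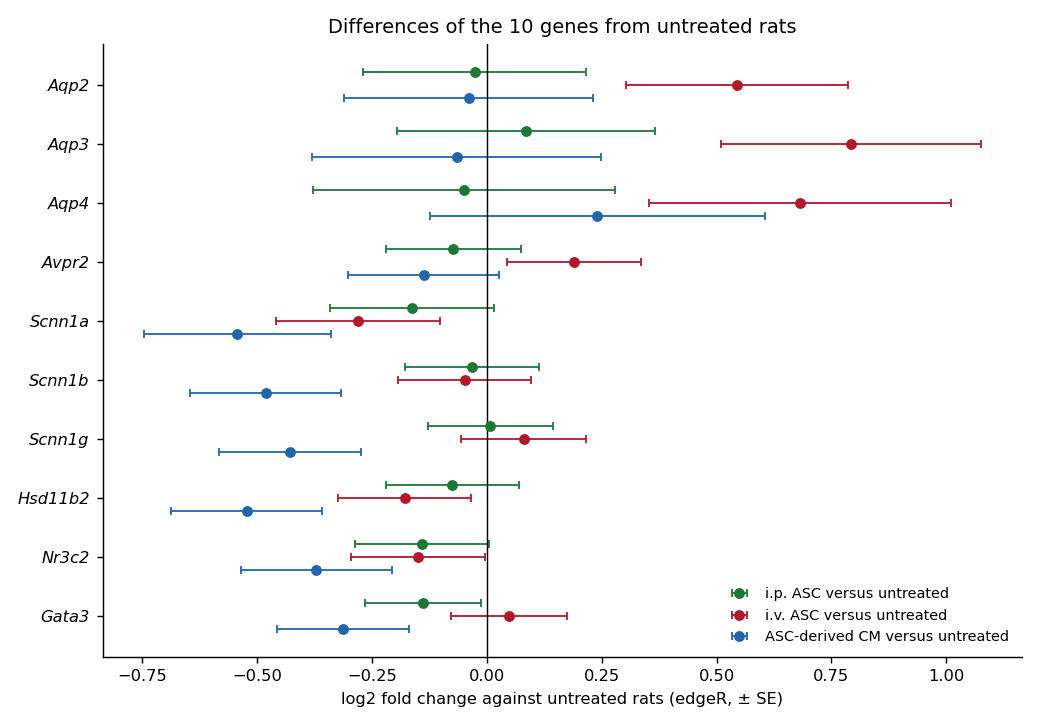
Log2 fold change against untreated rats with its SE (horizontal axis, edgeR) for each member (vertical axis) in the 3 comparisons. The i.v. ASC points of Aqp2, Aqp3 and Aqp4 lie between 0.54 and 0.79, and the ASC-derived CM points of the 3 sodium channel genes and Hsd11b2 lie between -0.54 and -0.43.

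Markers of other cells were also compared in the ASC-derived CM rats, and no gene of any marker list passed the adjusted threshold there. Intercalated cells, the acid-base cells that share the collecting duct with principal cells, are marked by 11 genes, and 7 of 11 were lower with an unadjusted p under 0.05, against 3.75% of all genes, with a median log2 fold change of -0.43. Their sum was 1797, 1505, 1779 and 1673 TPM in the 4 rats, each below the lowest untreated rat at 1906 TPM, with Aqp6 or Atp6v0a4 as the most abundant and no gene at 0. Slc26a4, the chloride and bicarbonate exchanger pendrin, had a log2 fold change of -0.72 ± 0.19 (SE) with an adjusted p of 0.665, and Atp6v1b1, a proton pump subunit, one of -0.45 ± 0.12 with 0.711. Not all genes of the list were lower, as 2 of the 11 had a log2 fold change above 0, Slc4a1 with 0.39 ± 0.30 (SE) and Aqp6 with 0.28 ± 0.29, both named after their values were seen. The 10 proximal tubule genes summed to 8438, 4676, 3513 and 4296 TPM in these rats, against 1149 to 3955 TPM in untreated rats, with Miox as the most abundant and no gene at 0. Their median log2 fold changes were 0.44, 0.36 and 0.61 after i.p. ASC, i.v. ASC and ASC-derived CM. The 7 thick ascending limb and distal convoluted tubule genes summed to 5845, 4309, 3118 and 2054 TPM in the ASC-derived CM rats and to between 1954 and 4294 TPM in untreated rats, with Umod as the most abundant and Pvalb at 0 in 17 of the 22 rats. This sum hides opposite directions. At an unadjusted p under 0.05, 2 of the 6 tested genes were higher and 1 lower, against 2.84% and 3.75% of all genes. Those higher were Cldn10 and Slc12a1, genes of the thick limb. The lower one was Slc12a3, the sodium chloride cotransporter of the distal convoluted tubule, named after its values were seen, at 184, 239, 762 and 498 TPM against 551 to 965 TPM in untreated rats. Rats 1 and 2 of the ASC-derived CM group, which had its lowest values of Scnn1a, Scnn1b and Hsd11b2, also had podocyte sums of 54.7 and 64.8 TPM and endothelial sums of 100.03 and 109 TPM, all below the untreated rats, whereas rats 3 and 4 were at 195 and 299.7 TPM and at 222 and 257 TPM. The part of intercalated cells, thick limb, distal tubule, podocytes and endothelium in the levels of the members was not tested.

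Across all groups together, 4 of 10 members had an unadjusted p under 0.05 in edgeR's F test, namely Aqp3, Scnn1g, Hsd11b2 and Scnn1b, against 4.11% of all genes. After adjustment 11 genes, 0.0855% of those tested, passed and none was a member, while all 6 urothelial genes tested were among them, with adjusted p-values of 0.0087 for Upk1b to 0.0447 for Trp63. No gene passed without i.v. ASC rat 3 alone, with at least 10 counts required in each rat or by limma-trend. The filter of 10 counts could not test all of these genes. Upk2, Upk3a and Krt5 were at 0 in 11, 3 and 1 rats and were removed by it. The unadjusted p-values by edgeR were 0.0204 for Aqp3, 0.0222 for Scnn1g, 0.0291 for Hsd11b2 and 0.0384 for Scnn1b, and every member had an adjusted p of 0.912. Without rats 3 and 5 of the i.v. ASC group the 4 members were 3, as Aqp3 no longer had an unadjusted p under 0.05, against 2.52% of all genes in that fit. ASC-derived CM had the lowest mean TPM for 9 of 10 members, all but Aqp4, and untreated rats the highest for 6, which were the 3 sodium channel genes, Hsd11b2, Nr3c2 and Gata3. In none of the 6 contrasts between groups did an adjusted p of a member reach 0.05, so no neighbours in the order of group means were shown to differ beyond their spread. Against i.p. ASC, i.v. ASC rats had 3 of 10 members higher with an unadjusted p under 0.05, Aqp2, Aqp3 and Aqp4, against 1.64% of all genes, and 0 of 10 without rats 3 and 5, against 0.647%. ASC-derived CM had 3 of 10 lower than i.p. ASC, Scnn1b, Scnn1g and Hsd11b2, against 1.94%, and 6 of 10 lower than i.v. ASC, against 2.81%. The 6 were Aqp2, Aqp3, Scnn1b, Scnn1g, Hsd11b2 and Gata3, of which Scnn1g had the smallest p-value, with a log2 fold change of -0.51 ± 0.15 (SE) and an adjusted p of 0.989. Without rats 3 and 5 the 6 were 2, Scnn1b and Scnn1g, against 1.43% of all genes in that fit.

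The genes around the members were taken from lists of the hormone pathways. Of 23 genes of the vasopressin pathway, 0 passed the adjusted threshold in any comparison. Pde4d, which breaks down cyclic AMP, had log2 fold changes of -0.46 ± 0.20 (SE) after i.p. ASC and -0.61 ± 0.20 after i.v. ASC, and was the 1 gene of the list with an unadjusted p under 0.05 in each (adjusted p of 0.771 and 0.523), a count near the share of all genes that were lower, 2.14% and 5%, while ASC-derived CM had 0 such genes. The median log2 fold changes of the list were 0.00, -0.02 and -0.04 after i.p. ASC, i.v. ASC and ASC-derived CM. Of 19 genes of the aldosterone pathway, 0 passed the adjusted threshold, and at an unadjusted p under 0.05 the counts were 0 after i.p. ASC, 1 higher and 2 lower after i.v. ASC (3.81% and 5% of all genes), and 0 higher and 3 lower after ASC-derived CM (2.84% and 3.75% of all genes). Without rats 3 and 5 the i.v. ASC counts were 0 higher and 1 lower, Edn1, against 1.08% and 2.14%. The gene that was higher after i.v. ASC was Fxyd4, a regulator of the sodium pump in the collecting duct, at 198 and 124 TPM in rats 3 and 5 and at 25.3 to 68.7 TPM in the untreated rats, with an adjusted p of 0.523. Edn1, which encodes endothelin-1, an inhibitor of sodium uptake in this segment, had log2 fold changes of -0.67 ± 0.18 (adjusted p = 0.504) in the i.v. ASC rats and -0.58 ± 0.21 (adjusted p = 0.711) in those given ASC-derived CM. The median log2 fold changes of the aldosterone list were 0.03, -0.03 and -0.12.

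Of 14 other genes of the collecting duct epithelium, 0 passed the adjusted threshold. After i.v. ASC 4 were higher and 1 lower at an unadjusted p under 0.05, against 3.81% and 5% of all genes, and without rats 3 and 5 these counts were 0 and 1, against 1.08% and 2.14%. Elf5, a transcription factor of the principal cell lineage, was at 8.30 and 6.27 TPM in rats 3 and 5 and at 0.712 to 1.25 TPM in untreated rats, and Krt19, a keratin of duct epithelia, was at 343 and 404 TPM against 96.1 to 238 TPM. After ASC-derived CM 1 was higher and 3 lower, against 2.84% and 3.75% of all genes, among them Calb1, a calcium-binding protein, with a log2 fold change of -1.09 ± 0.36 (SE), and Cdh1, the cadherin of epithelial junctions, with -0.34 ± 0.11, both with an adjusted p of 0.711. The Calb1 levels in the 4 rats were 165, 104, 379 and 268 TPM, and 366 to 698 TPM in untreated rats, with rat 3 inside their range.

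Over the 22 rats many members moved together, which was tested for all 45 pairs by a two-sided permutation test of Pearson's r and of Spearman's rho on log2 CPM, with 100000 permutations and Benjamini-Hochberg adjustment. By r 24 of 45 pairs had an adjusted p under 0.05, all positive, and by rho 20. Aqp2 and Aqp3 gave r = 0.97 and rho = 0.94, with a p of 1e-05 each, the smallest that these permutations give (adjusted p = 5.63e-05 for r). Rats 3 and 5 of the i.v. ASC group were the 2 farthest from the median of Aqp2, and without them r was 0.93. Aqp2 and Avpr2 gave r = 0.88 and rho = 0.79 and r = 0.80 without the same rats. Aqp2 and Aqp4 gave r = 0.77 (adjusted p = 0.000777) and rho = 0.53 (adjusted p = 0.0346), and without these rats r was 0.40 with a permutation p of 0.0792, so that the relation by r rested on them. For Aqp3 and Aqp4 r was 0.71 over all rats and 0.26 without them, with rho = 0.47 over all rats (adjusted p = 0.0592). For Aqp4 and Avpr2 r was 0.66 and 0.30, with rho = 0.52 over all rats (adjusted p = 0.0346).

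**Figure D4:**
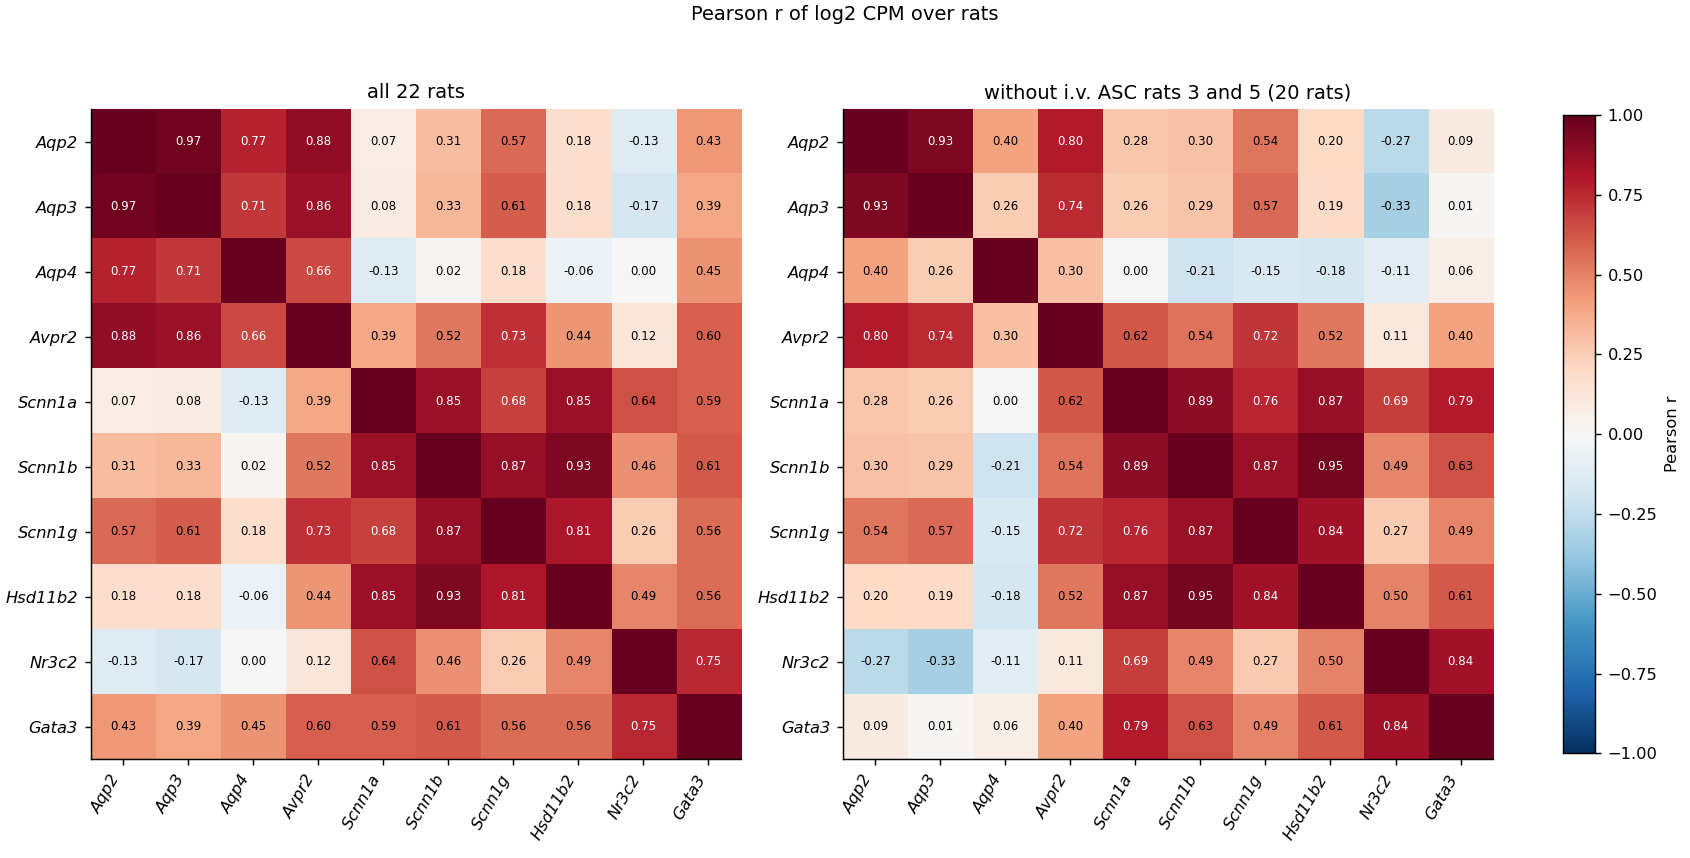
Pearson r of log2 CPM over rats for each pair of members, over all 22 rats (left) and over the 20 rats left without rats 3 and 5 of the i.v. ASC group (right). Aqp2, Aqp3 and Avpr2 stay between 0.74 and 0.93 in the right panel, and the 3 sodium channel genes and Hsd11b2 between 0.76 and 0.95, whereas the pairs of Aqp4 lie between -0.21 and 0.40.

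Relations were also seen among the sodium genes. Scnn1b and Hsd11b2 gave r = 0.93 and rho = 0.89 (adjusted p = 5.63e-05 for r), and r = 0.91 without the 2 rats farthest from the median of Scnn1b, i.p. ASC rat 1 and ASC-derived CM rat 2. Scnn1b and Scnn1g, both on chromosome 1, gave r = 0.87 and rho = 0.88, and r = 0.80 without the same 2 rats. Scnn1a gave r = 0.85 with Scnn1b and 0.68 with Scnn1g, and Nr3c2 and Gata3 gave r = 0.75 and rho = 0.80. Nr3c2 and Scnn1g gave r = 0.26. Few pairs of an aquaporin and a sodium gene were related. Of the 15 pairs of an aquaporin with a Scnn1 gene, Hsd11b2 or Nr3c2, 2 had an adjusted p under 0.05 by r. These were the pairs of Scnn1g with Aqp2 (r = 0.57) and Aqp3 (r = 0.61), and the median r of the 15 was 0.08. With the receptor gene Avpr2, Scnn1g gave r = 0.73 (adjusted p = 0.000585). That r was 0.61 without the 2 rats farthest from the median of Avpr2 and 0.72 without rats 3 and 5 of the i.v. ASC group. Avpr2 and Scnn1b gave r = 0.52 (adjusted p = 0.023), 0.31 without the 2 farthest rats and 0.54 without rats 3 and 5 (adjusted p = 0.0338). With Scnn1a and Hsd11b2, Avpr2 gave r = 0.385 and 0.44 over all rats (adjusted p = 0.114 and 0.066). These were 0.22 and 0.40 without the 2 farthest rats. Without rats 3 and 5 they were 0.62 and 0.52 (adjusted p = 0.00903 and 0.0386). With Nr3c2, Avpr2 gave r = 0.12 over all rats. Within the groups, as deviations of each rat from its group mean, the r of Aqp2 and Aqp3 was 0.96 and that of Scnn1b and Hsd11b2 was 0.91, and 24 of 45 pairs passed. All of these values come from the same libraries and share their totals.

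**Figure D5:**
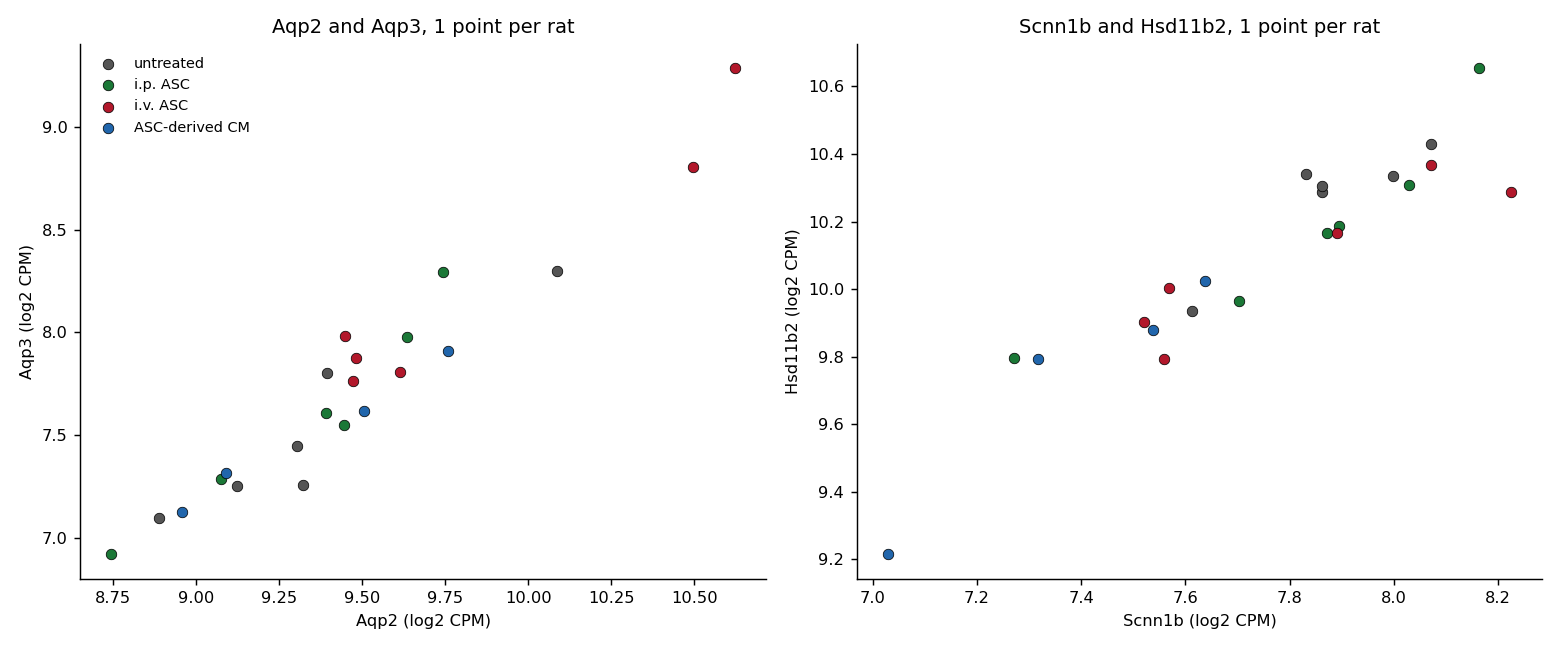
Log2 CPM of Aqp2 and Aqp3 (left) and of Scnn1b and Hsd11b2 (right), 1 point per rat, coloured by treatment group. Points of all groups lie along both relations (r = 0.97 and 0.93), with the 2 highest points at the left being i.v. ASC rats and the lowest point at the right an ASC-derived CM rat.

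Relations of the members with the marker scores of other cells, the mean log2 CPM of a list, were computed in the same way for 10 members and 6 lists. By r 15 of 60 had an adjusted p under 0.05, 14 positive and 1 negative, and by rho 5. Leaving out rats 3 and 5 of the i.v. ASC group gave a count of 5, and deviations from group means 1. The intercalated cell score went with Scnn1g (r = 0.68, rho = 0.63, adjusted p = 0.011 for r). It also went with Hsd11b2 by r (r = 0.68), while rho was 0.58 with an adjusted p of 0.0543. Without the 2 rats farthest from the median of the score, i.p. ASC rat 5 and ASC-derived CM rat 2, r was 0.58 and 0.45. Without rats 3 and 5 of the i.v. ASC group r was 0.71 and 0.74, and as deviations from group means over all 22 rats it was 0.50 and 0.56. The medullary osmolyte score gave r = 0.76 with Aqp4 (adjusted p = 0.011), while rho was 0.38 (adjusted p = 0.186). The r was 0.59 without the 2 rats farthest from the median of the score. Without rats 3 and 5 of the i.v. ASC group it was 0.43 (adjusted p = 0.219), so the call by r was lost. As deviations from group means over all 22 rats, r of Aqp4 with this score was 0.75. The urothelial score went with Aqp3 over all rats (r = 0.70, rho = 0.71, adjusted p = 0.0178 for r). The r was 0.58 without the 2 farthest rats. It was 0.31 without rats 3 and 5 (adjusted p = 0.413), so this call was lost too. The negative relation was that of Gata3 with the proximal tubule score (r = -0.54), for which rho was -0.50 with an adjusted p of 0.104. Its r was -0.57 without the 2 rats farthest from the median of the score.

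For each member the 3 genes outside the list with the highest r over the 22 rats were looked up, and their r is given as a description. Fxyd4 was first for both Aqp2 (r = 0.91) and Aqp3 (r = 0.90), and without rats 3 and 5 of the i.v. ASC group these values were 0.80 and 0.74. Oas1f was also among them for Aqp2 (r = 0.86), and Hacd3 for Aqp3 (r = 0.84). Aqp4 was most like Rhpn2 (r = 0.91), C13h1orf116 and Elf5, and Tmem30b (r = 0.86) and Mboat2 (r = 0.85) were among those of Avpr2. Among the sodium genes, Scnn1a was most like Aif1l (r = 0.92), Ptgfr and Kcnq1, Scnn1b like Degs2 (r = 0.95), Tmprss2 and Kcnq1, and Scnn1g like Tp53inp2 (r = 0.93), Defb1 and A4galt. Hsd11b2 was most like Dnase1 (r = 0.92), Degs2 and Defb1. Nr3c2 was most like Tfcp2l1 (r = 0.90), a transcription factor of the collecting duct, Acvr1b and Itpr2, and Gata3 like Mtmr3 (r = 0.88), Il12rb2 and Ndrg2. With rats 3 and 5 left out, r was 0.97 for Scnn1b and Degs2 and 0.91 for Nr3c2 and Tfcp2l1.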

How the data were processed

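Kidney RNA of 22 rats was read with BGISEQ-500 chemistry. The deposited files hold, for each Entrez gene, an estimated count that was not normalized and a TPM value, in which the authors' pipeline corrects for transcript length and library total. The submitters' processing notes name Trim Galore 0.6.4, kallisto 0.4.6 and the build rn6. How reads shared by paralogs or by overlapping or antisense genes were split is not given in the sources used here. Groups were taken from the treatment label, and rats were numbered in accession order, so numbers pair no rats.

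The estimated counts were rounded, since 14.1% were not whole (tolerance 1e-06). Symbols were matched for 17179 of 17334 genes through the RefSeq table of GRCr8, used for names. Log2 fold changes and p-values came from edgeR 4.0.16 in R 4.3.3 (TMM, filterByExpr, quasi-likelihood F test, 4 groups in 1 fit, Benjamini-Hochberg over 12867 genes, threshold 0.05), with log2 CPM at a prior count of 2. The fit was tested on simulated counts. Each test was repeated with DESeq2 1.42.0, with size factors by RLE, without a filter, with at least 10 counts in every rat, by limma-trend (limma 3.58.1) on log2(TPM + 1) and log2(TPM + 0.1), with the proximal tubule score added to the model, on only the 2 groups compared, and leaving out rats one at a time. For relations they were log2(TPM + 1), a prior count of 0.5, RLE factors, deviations from group means and single rats. The joint omission of i.v. ASC rats 3 and 5 was added after the data were seen. The members and all lists were chosen with earlier results of these data known. Named were the 10 members, of each list the 2 genes with the smallest p in a comparison with untreated rats, beside the most abundant marker genes, and the 3 most alike genes of each member, of which some are not reported here. Krt7, Trpm6, Upk3b and Cd79a of the lists were not listed in the files. Rats of a group were checked pairwise, and none had counts within sampling noise.

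In the lists of podocyte, endothelium, fibroblast and lymphocyte genes no gene passed the adjusted threshold. Their median log2 fold changes after i.p. ASC, i.v. ASC and ASC-derived CM were -0.36, -0.68 and -0.58 for podocyte, -0.23, -0.36 and -0.23 for endothelium, 0.02, 0.18 and 0.54 for fibroblast and 0.15, 0.20 and 0.27 for lymphocyte genes.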

Additional observations from a re-analysis of the deposited data

Results flagged for a closer look

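Hsd11b2 in untreated rat 6 was far from the other untreated rats. Its level was 9.93 log2 CPM (829 TPM), and the nearest of the other 5 rats was at 10.29 log2 CPM, a gap of 0.713 of the range of the group. It was the 1 such value among the 40 combinations of member and group that were checked, and chance alone gives about 1 in 20.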

How the results depend on the processing

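No member passed the adjusted threshold in a comparison with untreated rats under any alternative run. By DESeq2, 28 genes passed after i.v. ASC and 5 after ASC-derived CM, 24 between i.v. and i.p. ASC, 2 between ASC-derived CM and i.p. ASC, 22 between ASC-derived CM and i.v. ASC and 44 between the 4 groups. With only the 2 groups compared 1 gene passed after ASC-derived CM. The 11 genes of the F test were 0 with limma-trend at both pseudocounts and without i.v. ASC rats 3 and 5. Without single rats they were 0 to 18 (0, 5, 5 and 18 without i.v. ASC rats 3, 1, 5 and 6). With at least 10 counts in every rat they were also 0, but that filter removed Upk2, Upk3a and Krt5 before the test. Leaving out single rats gave 0 to 14 genes after i.v. ASC (11 without rat 2, 14 without rat 6) and 0 to 13 between i.v. and i.p. ASC (13 without rat 2 or rat 6). The count of 2 members at an unadjusted p under 0.05 after i.v. ASC was 3, with Aqp4 added, by DESeq2, with RLE size factors, without a filter, under the stricter filter of 10 counts and with the covariate, 1 with limma-trend and with 2 groups, 0 without rats 3 and 5, and 0 to 3 without single rats. It was 0 without i.v. ASC rat 3, 1 without i.v. ASC rat 5 or any of untreated rats 1, 3, 4, 5 and 6, and 3 under the other omissions. That of 6 after ASC-derived CM was 4, without Nr3c2 and Gata3, with limma-trend at both pseudocounts and with the covariate, and 2 to 6 without single rats, lowest without ASC-derived CM rat 2. The cause was not tested.

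Several directions changed, for fold changes near 0 and for Aqp4 after i.v. ASC (0.68 over all rats). After i.p. ASC, limma-trend at pseudocounts 1 and 0.1 gave -0.0124 and -0.0127 for Aqp3 and -0.099 and -0.101 for Scnn1g, while the covariate gave 0.012 for Aqp4 and 0.019 for Scnn1b. After i.v. ASC, limma-trend gave -0.0347 and -0.0352 for Scnn1g and -0.0823 and -0.0835 for Gata3, the covariate 0.0033 for Scnn1b, and the omission of rats 3 and 5 -0.199, -0.0119 and -0.0882 for Aqp4, Avpr2 and Gata3. Without single rats the ranges after i.p. ASC were -0.111 to 0.164 for Aqp2, -0.0741 to 0.286 for Aqp3, -0.129 to 0.024 for Aqp4, -0.133 to 0.00996 for Avpr2, -0.0974 to 0.0644 for Scnn1b and -0.0600 to 0.0889 for Scnn1g. After i.v. ASC they were -0.14 to 0.0062 for Scnn1b, -0.0105 to 0.13 for Scnn1g and -0.0188 to 0.115 for Gata3, and after ASC-derived CM -0.21 to 0.15 for Aqp2 and -0.23 to 0.13 for Aqp3. The 6 members lower after ASC-derived CM stayed below 0 in every setting run.

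The 24 relations among members were 20 without i.v. ASC rats 3 and 5 and 18 to 26 without single rats. The 15 relations with marker scores were 1 within groups, 5 without these 2 rats and 5 to 14 without single rats (5 without i.v. ASC rat 5, 6 without rat 3). No paired analysis was possible because the groups hold different animals and the rats carry numbers in accession order only. The 4 ASC-derived CM rats limit what that comparison can show.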
